A study of Homo sapiens with 6 samples.

Results

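The genes described here are 9 keratin genes, KRT7, KRT8, KRT15, KRT17, KRT18, KRT19, KRT80, KRT81 and KRT86, followed across MDA-MB 231 cells given an NC mimic, miR-200a, or miR-200a with a plasmid for ELK3. They were chosen by name, with earlier results of these data known, and matched to the gene symbols of the count tables. All 9 were found there among 24462 symbols, and 8 had enough counts to be tested. MDA-MB 231 is a human triple-negative breast cancer cell line of the claudin-low, mesenchymal-like kind. RNA was taken 48 h after lipid transfection, and each of the 3 groups has 2 libraries. The first group had the negative control (NC) mimic, a small RNA without an intended target, and its dose is not given in the sources used here. The second group had miR-200a at 100 nM. The last had miR-200a at 100 nM together with 30 ng of a pcDNA3.1 plasmid carrying the coding region of ELK3, an ETS family transcription factor, and the labels call this plasmid both Flag-ELK3 and Hygro(+)-ELK3. Whether the other groups received an empty plasmid is not given, and transient transfection leaves some cells without the plasmid. Nothing in the labels says that the 2 libraries of a group came from separate cultures, so the p-values below measure only the spread between these libraries, which may be technical.

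Keratins form the intermediate filaments of epithelial cells. Each filament is built from pairs of an acidic type I keratin and a basic type II keratin, and neither type makes a filament alone. KRT8 and KRT18 are the first pair laid down in simple epithelia, KRT7 and KRT19 are found in ducts and glands, KRT15 and KRT17 mark basal and stratified epithelia, and KRT81 and KRT86 are known from hair. Cells that pass from an epithelial to a mesenchymal state typically carry fewer keratin filaments and more vimentin, the mesenchymal intermediate filament protein, and the miR-200 family is known for holding cells on the epithelial side by acting on the repressors ZEB1 and ZEB2.

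The sequence that the mimic carries and the keratin transcript that holds a match to it are shown first, because a miRNA reads its targets through bases 2 to 8, the seed. The labels name no arm, and the sequence is that of the 3p arm, which the study names, from RefSeq on GRCh38.p14 (chromosome 1, 1167916 to 1167937, plus strand). Capitals mark the seed in the miRNA and the letters that pair with it, CAGTGTT, in the transcript.
hsa-miR-200a-3p: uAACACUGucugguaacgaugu
KRT80 3′UTR: aatgtaattccCAGTGTTggaagtggagc
The match in KRT80 lies in exon 9, at chromosome 12, 52169294 to 52169300 on the minus strand (GRCh38, GENCODE annotation), 298 bases before the end of the transcript. It is not followed by an A. A single annotated transcript was searched per gene, and other transcripts or 3′ ends were not examined. In these transcripts KRT80 was the only one of the 9 keratin genes with a match in its 3′UTR. None had one in the coding sequence or the 5′UTR. Among 18919 annotated genes, also with a single transcript each, 16.7% held a match in the 3′UTR. A match of this kind is a description of the letters and not a measured site.

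Total counts lay between 3055915 and 4868004 per library, the lowest in a library of the NC mimic group. Values are given as CPM, in which each library's counts are brought to the same total by edgeR's TMM scaling, and 3 counts, taken as the smallest value that can be read, are 0.611 to 0.979 CPM. Such floors and the intervals on shares cover counting error only, since the reads carry no molecular identifiers as far as the sources used here state. Libraries of a group differed by a root mean square of 0.40 on the log2 scale in the NC mimic group, 0.34 in the miR-200a group and 0.56 in the group labelled miR-200a plus ELK3 (ELK3-labelled below). ELK3 itself, which checks the labels, was at 152 ± 20.1 CPM (SD, n = 2) after the NC mimic, 103 ± 0.382 after miR-200a and 87.7 ± 12.0 in the ELK3-labelled group. Its log2 fold change for miR-200a against NC mimic was -0.56 (Benjamini-Hochberg adjusted p = 0.232 by edgeR's quasi-likelihood test). For the ELK3-labelled group it was -0.23 against miR-200a (adjusted p = 0.354) and -0.79 against NC mimic (adjusted p = 0.0117), by the same test. ELK3 was thus not higher where its plasmid should be, and how the counting treats a plasmid transcript without the gene's own 3′UTR is not given, so the group is called ELK3-labelled throughout. By qRT-PCR and Western blot of these cells, the study reported that ELK3 mRNA and protein fell with miR-200a and returned to control levels with the plasmid. These counts may not read the plasmid transcript. Of the mesenchymal markers of this line, VIM and AXL had 2432 to 11179 counts per library, but SPARC only 0 to 8. Of the luminal breast markers, ESR1 had 0 in all 6 libraries, while GATA3 had 14 to 42 and ERBB3 7 to 27. Of the basal or myoepithelial markers, KRT5, KRT14 and ACTG2 had 0 and TP63 0 to 4, but OXTR had 10 to 38. Claudin-low lines are known for low claudin levels, and here CLDN3 had 0 to 7 counts, CLDN7 123 to 416 and CLDN4 589 to 1143. The epithelial genes CDH1 and EPCAM had 0 to 12 and 39 to 140 counts.

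The 9 keratin genes together took a small part of each library. The NC mimic libraries had 2778 and 1853 of their counts, which are 0.0612% of the library (95% Wilson interval 0.0590 to 0.0635) and 0.0606% (0.0579 to 0.0635). With miR-200a they had 3426 and 3527 counts, 0.0718% (0.0694 to 0.0742) and 0.0725% (0.0701 to 0.0749). In the ELK3-labelled libraries they had 2699 and 3424 counts, 0.0638% (0.0615 to 0.0663) and 0.0787% (0.0761 to 0.0814). Both miR-200a libraries lay above both NC mimic libraries, and the ELK3-labelled libraries spanned the miR-200a values. In bulk RNA, fewer cells that express a keratin and less of its RNA per cell cannot be told apart.

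In miR-200a against NC mimic, which asks what the miRNA does to the cells, none of the 8 tested keratin genes passed edgeR's quasi-likelihood test at a Benjamini-Hochberg adjusted p under 0.05. Among all 12650 tested genes 0.269% passed, 0.213% as higher and 0.0553% as lower. At an unadjusted p under 0.05 there were 2 keratin genes, KRT8 and KRT19, beside 9.24% of all genes, and DESeq2 called 0 keratin genes and 0.773% of the genes it tested. The 2 groups did not overlap for any of the 8 keratin genes, and 48.9% of all tested genes had groups that did not overlap. The median log2 fold change was 0.34 over the keratin genes and -0.02 over all tested genes. In this direction 6 keratin genes had positive values (KRT7, KRT8, KRT15, KRT18, KRT19 and KRT80), and the hair keratins KRT81 and KRT86 had negative ones.

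The calls for this comparison changed with the ELK3-labelled group in or out of the model, in which all 6 libraries share an estimate of the spread. In a model of the 2 compared groups alone, 7.9% of all tested genes and 5 keratin genes passed the test. KRT8 (adjusted p = 0.000292), KRT19 (0.000832), KRT7 (0.0154) and KRT80 (0.0187) were then higher with miR-200a and KRT81 (0.0383) was lower, by edgeR's quasi-likelihood test with Benjamini-Hochberg adjustment. The count was also 5 when either ELK3-labelled library was left out of the 3-group model. For this comparison the gene paragraphs below give the values of the 6-library model, and the calls of the 2-group model given here should be read beside them.

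In miR-200a plus ELK3 against miR-200a, which asks what the plasmid changes in the presence of the miRNA, 3 of the 8 keratin genes passed, KRT18 and KRT80 as higher and KRT81 as lower. Of all tested genes 12.9% passed, 7.03% as higher and 5.91% as lower. Higher genes made 54.3% of those called, and 41.4% under upper-quartile scaling, which moved the median of all genes by -0.068. The groups did not overlap for 5 keratin genes and for 58.2% of all tested genes. The median was -0.32 over the keratin genes and 0.02 over all tested genes. With only these 2 groups in the model, 4.58% of all tested genes and 1 keratin gene, KRT81, passed.

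In miR-200a plus ELK3 against NC mimic, 4 of the 8 passed, KRT18 and KRT80 as higher and KRT81 and KRT86 as lower. Of all tested genes 12.9% passed here too, 6.92% as higher and 5.95% as lower. Higher genes made 53.8% of those called, and 42.9% under upper-quartile scaling, which moved the median of all genes by -0.059. The groups did not overlap for 6 keratin genes and for 56.7% of all tested genes. The median was 0.20 over the keratin genes and 0.01 over all tested genes. With only these 2 groups in the model, 4.73% of all tested genes passed, and KRT80 and KRT81 were the keratin genes among them. The 3 comparisons share groups, so a low or high group enters a pair of them at once.

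**Figure D1:**
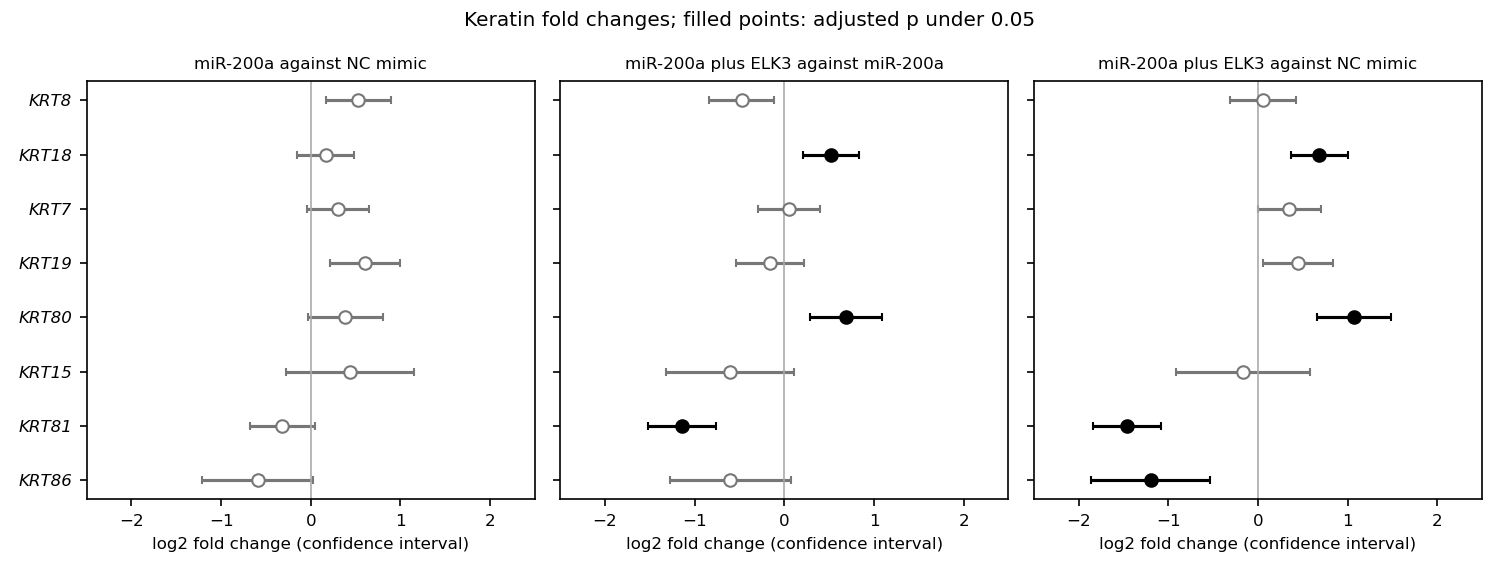
Log2 fold change of the 8 tested keratin genes (x axis, with 95% intervals) in the 3 comparisons, 1 panel each, by edgeR's quasi-likelihood model of all 6 libraries. Filled points passed an adjusted p under 0.05: no gene in the left panel, KRT18, KRT80 and KRT81 in the middle, and these and KRT86 at the right.

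KRT8, the type II member of the first keratin pair of simple epithelia, had its highest levels in the 2 libraries that had received miR-200a alone. It had 351 and 248 counts (NC mimic), 551 and 565 counts (miR-200a), and 401 and 298 counts (ELK3-labelled). On the CPM scale its level was 78.2 and 80.9 after the NC mimic, 114 and 115 after miR-200a, and 95.0 and 70.0 in the ELK3-labelled group. The miR-200a libraries stood above all 4 others, while the ELK3-labelled group had 1 library above and 1 below the NC mimic libraries. The log2 fold change of miR-200a against NC mimic was 0.53 (standard error 0.16, 95% interval 0.16 to 0.89, adjusted p = 0.315 by edgeR's quasi-likelihood test), a level 1.44-fold higher. Against miR-200a, the ELK3-labelled group had a log2 fold change of -0.48 (interval -0.84 to -0.11) with an adjusted p of 0.0806, which was 0.0376 without a filter on low counts. Without its first library the value was -0.71, and without its second it was -0.32. Against NC mimic the ELK3-labelled group had a value of 0.05 (interval -0.32 to 0.42), and without its first library this was -0.16.

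KRT18, the type I partner of KRT8, had its highest levels in the ELK3-labelled libraries. It had 552 and 375 counts (NC mimic), 662 and 677 counts (miR-200a), and 739 and 935 counts (ELK3-labelled). Its level was 123 and 122 CPM after the NC mimic, 137 and 138 after miR-200a, and 175 and 220 in the ELK3-labelled group. The 3 groups did not overlap and stood in that order, with a narrow gap between the first 2 and a wide spread inside the last. Against NC mimic, miR-200a had a value of 0.17 (log2 fold change, standard error 0.14, interval -0.15 to 0.48, adjusted p = 0.796). KRT18 rose in the ELK3-labelled group by 0.52 against miR-200a (standard error 0.14, adjusted p = 0.0385) and by 0.69 against NC mimic (standard error 0.14, adjusted p = 0.0146), which are 1.43-fold and 1.61-fold (edgeR quasi-likelihood). The rise against miR-200a lost its call when any 1 of the 4 libraries of the other groups was left out (adjusted p 0.0976 to 0.261), and without the second ELK3-labelled library it was 0.30. DESeq2 (adjusted p = 0.0513) and upper-quartile scaling in edgeR (0.0662) did not call it either. The rise against NC mimic lost its call without either NC mimic or either miR-200a library, with adjusted p from 0.0555 to 0.153.

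The ratio of KRT8 to KRT18 counts sets the pair side by side within a library. It was 0.636 and 0.661 after the NC mimic, 0.832 and 0.835 after miR-200a, and 0.543 and 0.319 in the ELK3-labelled libraries. The 3 groups did not overlap, with means of 0.649 ± 0.0180, 0.833 ± 0.00158 and 0.431 ± 0.158 (SD, n = 2). A 3′ count is not a count of protein and the genes' reads may map with different ease, so the ratio is compared between libraries and not read as a balance of proteins. For such ratios a two-sided exact permutation test of 2 against 2 libraries cannot go below p = 0.333.

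The genes of this pair lie head to head on chromosome 12, KRT8 at 52897187 to 52949954 on the minus strand and KRT18 at 52948871 to 52952901 on the plus strand (GENCODE, GRCh38). They share 525 exon bases at their 5′ ends, away from the 3′ ends that the libraries read. Both have many pseudogenes. Of the 50-base words in the last 500 bases of the transcript, 36.4% for KRT18 and 21.1% for KRT8 occur in transcripts of other genes, and reads that map to several places may have been lost or split. The 8 keratin pseudogene symbols in the tables had at most 9 counts in a library.

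KRT7, a type II keratin of glandular and ductal epithelium, had 571 and 407 counts (NC mimic), 783 and 773 counts (miR-200a), and 595 and 812 counts (ELK3-labelled). On the CPM scale these are 127 and 133, 163 and 158, and 141 and 191. Both miR-200a libraries were above both NC mimic libraries, and the ELK3-labelled group held 1 library below and 1 above the miR-200a pair. The log2 fold change was 0.30 for miR-200a against NC mimic (interval -0.05 to 0.65, adjusted p = 0.618), 0.05 for the ELK3-labelled group against miR-200a (interval -0.29 to 0.40, adjusted p = 0.850) and 0.35 for the ELK3-labelled group against NC mimic (interval 0.00 to 0.70, adjusted p = 0.159), by edgeR's quasi-likelihood test. Without the first ELK3-labelled library the last 2 values were 0.26 and 0.58, and without the second the value against miR-200a was -0.23. KRT7 lies at chromosome 12, 52232520 to 52252186 on the plus strand, and shares 282 exon bases with the antisense gene KRT7-AS. The strand setting of the counting is not given in the sources used here, so reads from those shared bases cannot be assigned to 1 of the 2. Of the 50-base words in the last 500 bases of KRT7, 19.3% (87 of 451) occur in transcripts of other genes. KRT7-AS, the antisense gene of this locus, holds all 87 of them.

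KRT19, the type I keratin that pairs with KRT7 in many glands, had 259 and 143 counts (NC mimic), 383 and 392 counts (miR-200a), and 265 and 340 counts (ELK3-labelled). Its level was 57.7 and 46.7 CPM, 79.5 and 79.9 CPM, and 62.8 and 79.9 CPM in the same order. All 4 libraries that had received miR-200a stood above both NC mimic libraries. The log2 fold change of miR-200a against NC mimic was 0.60 (standard error 0.17, interval 0.22 to 0.99, adjusted p = 0.274 by edgeR's quasi-likelihood test), a 1.52-fold higher level. The ELK3-labelled group had values of -0.16 against miR-200a (adjusted p = 0.563) and 0.44 against NC mimic (interval 0.05 to 0.83, adjusted p = 0.119). Without the first library of the ELK3-labelled group these were 0.01 and 0.62. KRT19 lies at chromosome 17, 41523617 to 41528308 on the minus strand.

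**Figure D2:**
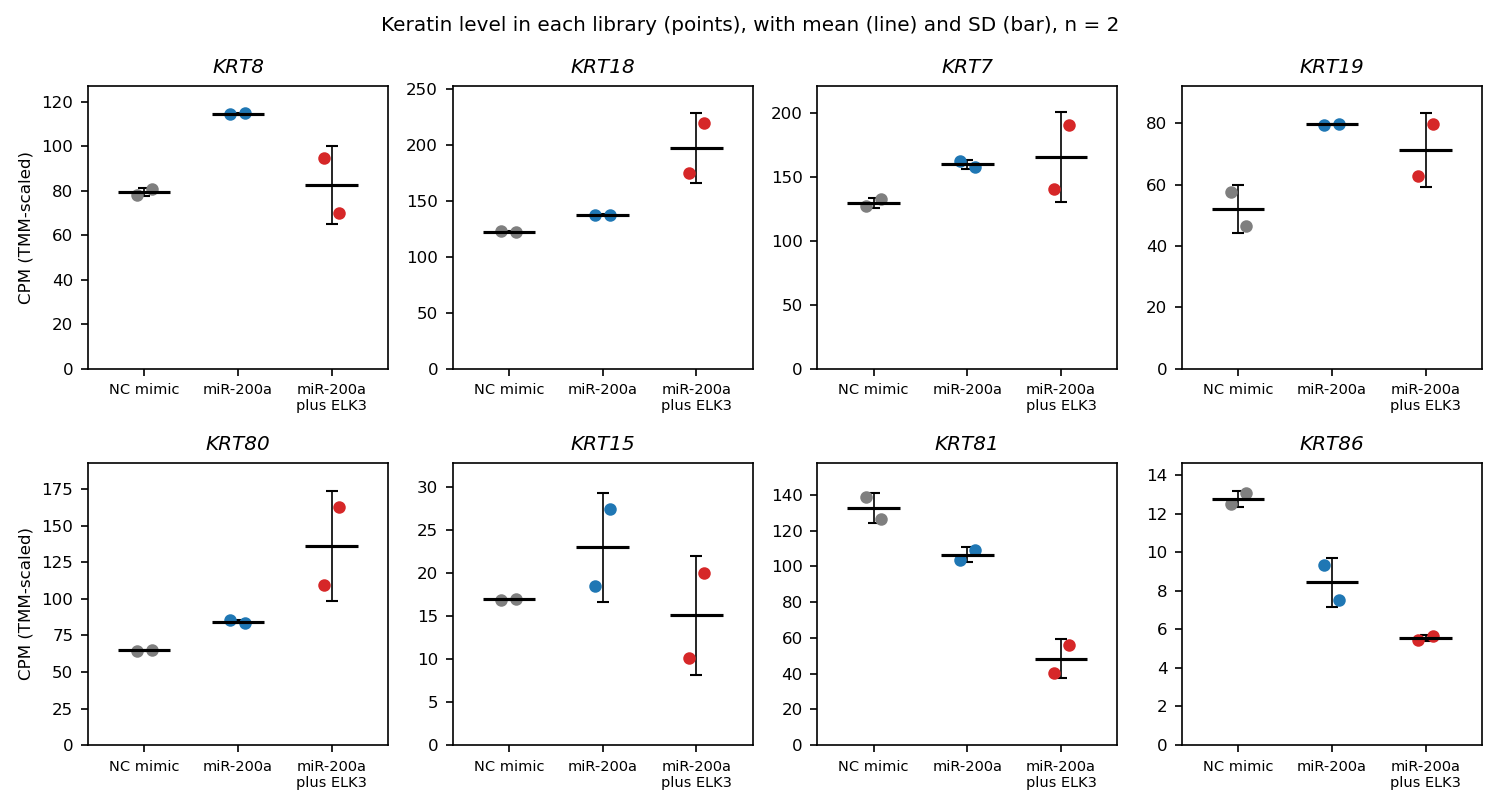
CPM (y axis, from 0, scaled by TMM) of each tested keratin gene in the 6 libraries, 1 panel per gene. Points are libraries, horizontal lines means and bars SDs (n = 2). KRT8 was highest with miR-200a, KRT18 and KRT80 were highest and KRT81 and KRT86 lowest in the ELK3-labelled libraries, and the spread of most genes was widest in that group.

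KRT80, a type II keratin found in many epithelia near desmosomes and the cell edge, had the largest rise of the 8 genes in the ELK3-labelled libraries, against either other group. It had 290 and 199 counts (NC mimic), 411 and 411 counts (miR-200a), and 462 and 692 counts (ELK3-labelled). Its level was 64.6 and 64.9 CPM after the NC mimic, 85.3 and 83.7 after miR-200a, and 109 and 163 in the ELK3-labelled group. The groups did not overlap, and the second library of the ELK3-labelled group stood far above the first. Against NC mimic, miR-200a had a value of 0.38 (log2 fold change, standard error 0.19, interval -0.03 to 0.80, adjusted p = 0.592). The ELK3-labelled group was higher than miR-200a by 0.69 (standard error 0.18, interval 0.28 to 1.09, adjusted p = 0.0360), which is 1.61-fold, and higher than NC mimic by 1.07 (standard error 0.19, interval 0.65 to 1.49, adjusted p = 0.00740), which is 2.10-fold, both by edgeR's quasi-likelihood test.

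The rise of KRT80 against miR-200a was 0.33 (adjusted p = 0.0524) without the second library of the ELK3-labelled group and 0.95 without the first. It also lost its call without any 1 of the other groups' libraries, with adjusted p from 0.0901 to 0.243, and under upper-quartile scaling (0.0551). The rise against NC mimic lost its call without either NC mimic library, at adjusted p of 0.106 and 0.113. KRT80, at chromosome 12, 52168996 to 52192000 on the minus strand, is the keratin gene whose 3′UTR match to the miR-200a seed is printed above. Its level was 84.5 ± 1.12 CPM (SD, n = 2) with miR-200a and 64.8 ± 0.247 CPM with the NC mimic.

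KRT15, a type I keratin of basal cells, was low and uneven. It had 76 and 52 counts (NC mimic), 89 and 135 counts (miR-200a), and 43 and 85 counts (ELK3-labelled). These are 16.9 and 17.0 CPM, 18.5 and 27.5 CPM, and 10.2 and 20.0 CPM. The miR-200a libraries were above the NC mimic libraries, but 1 of them only slightly, and the ELK3-labelled group overlapped both other groups. For miR-200a against NC mimic the value was 0.44 (log2 fold change, standard error 0.32, adjusted p = 0.741), and the ELK3-labelled group had -0.61 (0.32, adjusted p = 0.229) against miR-200a and -0.17 (0.34, adjusted p = 0.773) against NC mimic, by edgeR's quasi-likelihood test. Without the second library of the ELK3-labelled group the value against miR-200a was -1.22, and without the first it was -0.20. KRT15 lies at chromosome 17, 41513743 to 41522529 on the minus strand.

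KRT17, a type I keratin of basal and injured epithelium at chromosome 17, 41619441 to 41624842 on the minus strand, was not detectable at this depth as more than a few reads. The counts were 0 and 1 (NC mimic), 3 and 0 (miR-200a), and 0 in both ELK3-labelled libraries. No library was above the floor of 3 counts, so no fold is given and no test was made.

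KRT81, a type II hair keratin also known from breast cancer cells, had the largest fall in both comparisons of the ELK3-labelled group. It had 623 and 388 counts (NC mimic), 499 and 537 counts (miR-200a), and 171 and 238 counts (ELK3-labelled). Its level was 139 and 127 CPM, then 104 and 109 CPM, then 40.5 and 55.9 CPM. The 3 groups did not overlap, and the last stood far below the other 2. Against NC mimic, miR-200a had a value of -0.32 (log2 fold change, standard error 0.16, interval -0.68 to 0.05, adjusted p = 0.614). In the ELK3-labelled group KRT81 fell by 1.14 on the log2 scale against miR-200a (standard error 0.17, adjusted p = 0.00446), to a level 2.21-fold lower, and by 1.46 against NC mimic (standard error 0.17, adjusted p = 0.00119), to a level 2.75-fold lower, by edgeR's quasi-likelihood test.

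The fall of KRT81 against NC mimic passed under all 14 alternatives run, some of which leave a group with 1 library and no spread of its own. The fall against miR-200a lost its call without either miR-200a library (adjusted p 0.0772 and 0.0817) and under none of the other 12. Without the first ELK3-labelled library this fall was 0.93 on the log2 scale in size, and without the second 1.44, so each of them showed it. It was the only keratin gene that passed in this comparison in a model of the 2 compared groups alone.

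KRT86, another type II hair keratin, had few counts, 56 and 40 (NC mimic), 45 and 37 (miR-200a), and 23 and 24 (ELK3-labelled). These are 12.5 and 13.1 CPM, 9.34 and 7.54 CPM, and 5.45 and 5.64 CPM. The 3 groups did not overlap and stood in the same order as for KRT81. Against NC mimic, KRT86 fell by 1.20 on the log2 scale in the ELK3-labelled group (standard error 0.30, interval -1.86 to -0.53, adjusted p = 0.0293 by edgeR's quasi-likelihood test), to a level 2.29-fold lower. DESeq2 did not call this fall (adjusted p = 0.0896), and it lost its call without either NC mimic or either miR-200a library, at adjusted p from 0.0651 to 0.171. The other values were -0.59 for miR-200a against NC mimic (interval -1.21 to 0.03, adjusted p = 0.572) and -0.60 for the ELK3-labelled group against miR-200a (interval -1.28 to 0.07, adjusted p = 0.209).

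KRT81, at chromosome 12, 52285913 to 52291534 on the minus strand, lies inside the KRT86 locus, at 52249300 to 52309163 on the plus strand, with no shared exon bases. Their coding sequences are 90.7% identical, but their last 500 bases only 53.2%, and no 50-base word of that stretch of either gene occurs in another gene's transcripts. With the counts of both summed as 1 gene, the fall against miR-200a was 1.10 on the log2 scale in size (adjusted p = 0.00446 by edgeR's quasi-likelihood test). The ratio of KRT81 to KRT86 counts was 11.1 and 9.70 after the NC mimic, 11.1 and 14.5 after miR-200a, and 7.43 and 9.92 in the ELK3-labelled group, with overlap between the NC mimic group and both others.

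The keratin counts were divided among the 9 genes differently in the 3 groups. KRT81 made 22.4% and 20.9% of the counts of the 9 genes after the NC mimic, 14.6% and 15.2% after miR-200a, and 6.34% and 6.95% in the ELK3-labelled libraries. KRT80 made 10.4% and 10.7%, then 12.0% and 11.7%, then 17.1% and 20.2%. The shares of these 2 genes ran in opposite order across the 3 groups. KRT18 made 19.9% and 20.2%, then 19.3% and 19.2%, then 27.4% and 27.3%, so its share set the ELK3-labelled group apart. KRT8 made 12.6% and 13.4%, then 16.1% and 16.0%, then 14.9% and 8.70%, the widest difference between libraries of a group. For counting error, the widest 95% Wilson interval of such a share was that of KRT7 in the second NC mimic library, 20.1% to 23.9% around 22.0%.

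**Figure D3:**
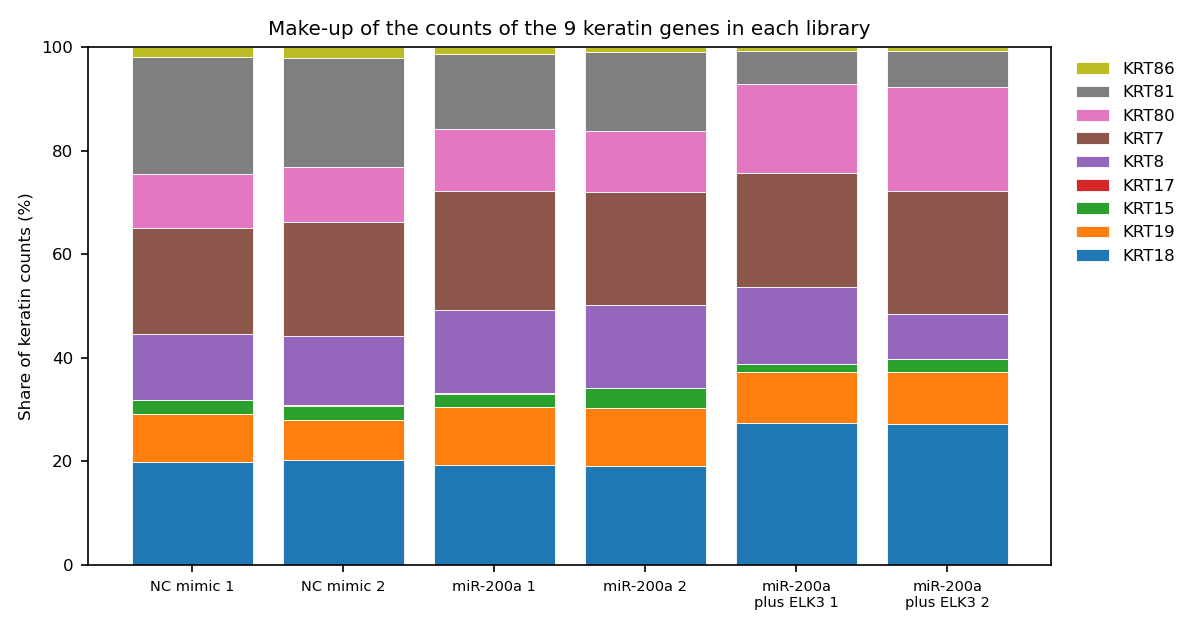
Share of each of the 9 keratin genes (colours) in the summed keratin counts of each library (y axis, %, from 0 to 100). The grey KRT81 part shrinks from 22.4% in the first NC mimic library to 6.34% and 6.95% in the ELK3-labelled libraries, where KRT18 and KRT80 take larger parts.

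The ratio of KRT81 to KRT80 counts was 2.15 and 1.95 after the NC mimic, 1.21 and 1.31 after miR-200a, and 0.370 and 0.344 in the ELK3-labelled group. The libraries of a group lay close together, and the groups did not overlap. KRT81 and KRT80, both type II, had the largest fall and the largest rise of the tested genes in the ELK3-labelled group. The distance of that group in this ratio therefore restates those values and is not a separate result. The ratio of the 5 type II to the 4 type I genes was 2.13 and 2.25, then 2.01 and 1.93, then 1.58 and 1.52. These groups did not overlap either, and the ratio was lowest in the ELK3-labelled libraries. The type II genes did not move together in that group. Against miR-200a and NC mimic, KRT81 had log2 fold changes of -1.14 and -1.46 and KRT86 -0.60 and -1.20. KRT7 had 0.05 and 0.35, KRT80 0.69 and 1.07, and KRT8 -0.48 and 0.05. KRT81 had 623 and 388 of the 1891 and 1282 type II counts after the NC mimic. In the ELK3-labelled group it had 171 and 238 of 1652 and 2064. KRT10, a type I keratin, is not in the ratio. The ratio of KRT7 to KRT19 counts was 2.20 and 2.85 after the NC mimic, 2.04 and 1.97 after miR-200a, and 2.25 and 2.39 in the ELK3-labelled group. For this pair the NC mimic group spanned the ELK3-labelled group.

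**Figure D4:**
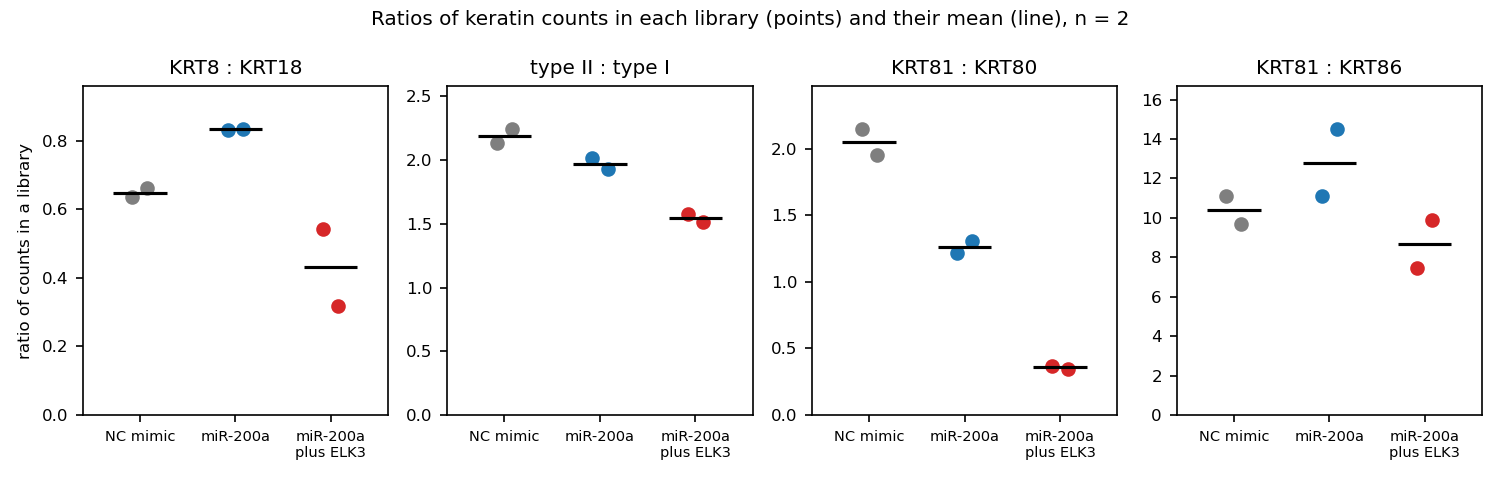
Ratios of keratin counts within each library (y axis, from 0, no unit), 1 panel per ratio, with points for libraries and lines for group means (n = 2). The KRT8 to KRT18 ratio was highest with miR-200a, at 0.832 and 0.835. The type II to type I and KRT81 to KRT80 ratios were lowest in the ELK3-labelled libraries, and both contain KRT81, the gene with the largest fall there.

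Of the genes with a mean log2 CPM over 5, those whose levels were most like KRT18 across the 6 libraries were GSPT1 (Pearson r = 0.999), USP42 (0.999) and PSMD8 (0.997). Those most like KRT7 were TOR1AIP2 (0.994), SLC38A10 (0.990) and EPS8L2 (0.980). They were picked as the closest of 5771 genes over 6 libraries in 3 groups, which selects for values near 1. KRT18 and KRT7 were used because they had the highest mean CPM of the type I and type II members.

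Other keratins were almost absent, apart from KRT10, which is not part of the keratin shares and ratios above. The tables list 55 keratin symbols, and of the 46 outside the 9 genes, 38 had no count in any library and 6 had 1 to 9 counts in all. KRT10, a type I keratin of differentiating skin, had 303 and 243 counts (NC mimic), 381 and 391 counts (miR-200a), and 413 and 307 counts (ELK3-labelled). Its log2 fold changes of 0.12, 0.10 and 0.22 in the 3 comparisons had adjusted p of 0.907, 0.737 and 0.443 (edgeR quasi-likelihood). KRT34, a hair keratin, had 2 to 8 counts per library. KRT10 was also the only one of 14 skin keratinocyte genes with enough counts to be tested, and KRT1, KRT2, KRT5, KRT6A, KRT14, LOR, IVL, DSG1 and DSC1 of that list were at 0 in every library.

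Keratin filaments are anchored at desmosomes and hemidesmosomes by linker proteins. Of a list of 24 keratin attachment and linker genes, not all of them for linker proteins, 18 were tested. This list and those below were chosen with earlier results of these data known, so their shares are only a description. With miR-200a against NC mimic 2 rose, PKP3, a plakophilin of the desmosome plaque, and ITGB4, the integrin of the hemidesmosome, beside 0.213% of all tested genes. PKP3 was at 18.0 and 11.1 CPM with the NC mimic and at 42.4 and 44.2 with miR-200a, a log2 fold change of 1.54 (adjusted p = 0.0343), and ITGB4 had 1.51 (adjusted p = 0.0293), by edgeR's quasi-likelihood test. DSP, desmoplakin, which ties keratin filaments to the desmosome, was at 137 and 123 CPM after the NC mimic, at 235 and 219 after miR-200a and at 153 and 194 in the ELK3-labelled group, with values of 0.80 (adjusted p = 0.0713) for miR-200a against NC mimic and -0.39 (adjusted p = 0.104) for the ELK3-labelled group against miR-200a. The most abundant of the list, DST, dystonin, and ITGA6, the partner of ITGB4, had values of -0.09 (adjusted p = 0.890) and 0.34 (adjusted p = 0.676). The median of the 18 was 0.28 against -0.02 over all genes.

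In the ELK3-labelled libraries, 4 of the 18 tested genes of this list fell against miR-200a and 2 rose, beside 5.91% and 7.03% of all tested genes, with a list median of -0.20. The ones that fell were JUP, plakoglobin (-1.01, adjusted p = 0.0166), DSC2, a desmosomal cadherin (-1.01, adjusted p = 0.0288), PPL, periplakin (-1.42, adjusted p = 0.0439), and ITGB4 (-1.05, adjusted p = 0.0139). The ones that rose were TCHP, trichoplein, which binds keratin filaments (1.28, adjusted p = 0.0131), and PNN, pinin (0.52, adjusted p = 0.0241). Against NC mimic 4 rose and none fell, PKP3 (1.71, adjusted p = 0.00262), PKP4 (0.52, adjusted p = 0.0499), PNN (0.53, adjusted p = 0.0232) and TCHP (1.23, adjusted p = 0.0148), with a list median of 0.27 and beside 6.92% of all genes as higher. All are edgeR quasi-likelihood values. In models of the compared groups alone the number of genes of the list called was 5, 2 and 2 of 18 in the 3 comparisons, beside 7.9%, 4.58% and 4.73% of all genes.

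**Figure D5:**
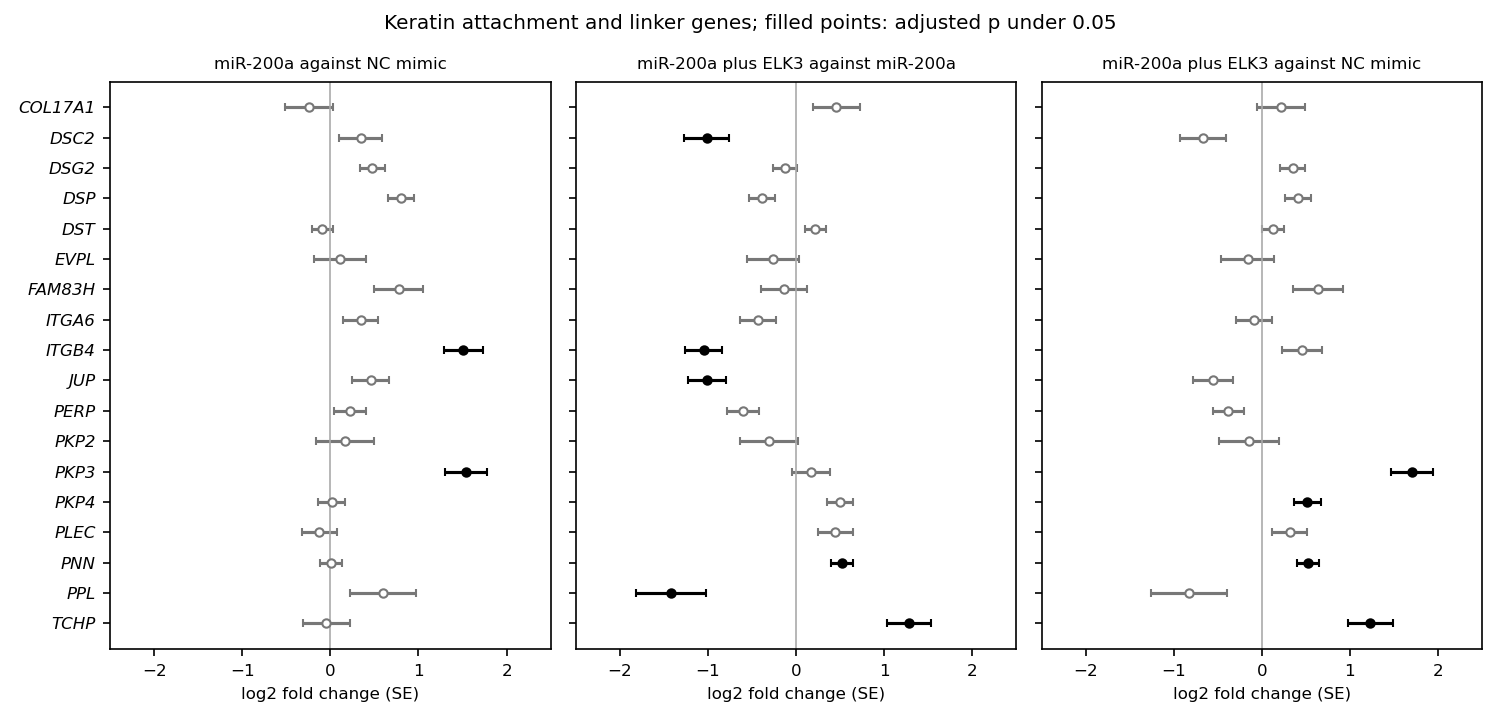
Log2 fold change with standard error (x axis) of the 18 tested keratin attachment and linker genes in the 3 comparisons, 1 panel each. Filled points passed an adjusted p under 0.05: PKP3 and ITGB4 at the left, 4 lower and 2 higher genes in the middle, and 4 higher genes at the right.

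Of 15 other intermediate filament genes 7 were tested. None passed in miR-200a against NC mimic, while 3 did with only those 2 groups in the model, where 7.9% of all genes passed. In each comparison of the ELK3-labelled group 1 of the 7 passed, a share near the 12.9% of all genes. NES, nestin, fell against miR-200a in the ELK3-labelled group (-1.46, adjusted p = 0.0275), and LMNB2, a nuclear lamin, fell there against NC mimic (-0.53, adjusted p = 0.0468), by edgeR's quasi-likelihood test. VIM, vimentin, had 9688 and 7547 counts (NC mimic), 10352 and 11179 counts (miR-200a), and 7830 and 4068 counts (ELK3-labelled). The second ELK3-labelled library stood lowest. The log2 fold changes of VIM were -0.06 for miR-200a against NC mimic, -0.66 (adjusted p = 0.0918) for the ELK3-labelled group against miR-200a and -0.72 (adjusted p = 0.0722) against NC mimic. The lamins LMNA and LMNB1 had adjusted p of at least 0.170 in all 3 comparisons.

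Among 24 transcription factors known to act on keratin or epithelial genes, 15 were tested and none passed in miR-200a against NC mimic, with 5 passing in a model of those 2 groups, beside 7.9% of all genes. ZEB1, a repressor of epithelial genes, had a log2 fold change of -0.44 there (adjusted p = 0.426) and ZEB2, its relative, -0.85 (adjusted p = 0.511). In the ELK3-labelled group 7 of the 15 fell against miR-200a and none rose, beside 5.91% and 7.03% of all genes, with a list median of -0.67 against 0.02 over all genes. They were the repressors SNAI1 (-1.63, adjusted p = 0.0145) and SNAI2 (-1.06, adjusted p = 0.00446), the epithelial ETS factors ELF3 (-1.11, adjusted p = 0.0190) and EHF (-0.99, adjusted p = 0.0469), KLF4 (-0.87, adjusted p = 0.0491), KLF5 (-0.97, adjusted p = 0.0137) and CEBPB (-1.08, adjusted p = 0.0138), by edgeR's quasi-likelihood test. Other members had positive values there and did not pass, ZEB1 with 0.21, ZEB2 with 0.06 and TFAP2C with 0.31 among them. Against NC mimic SNAI1, SNAI2, KLF5, JUN and CEBPB fell and TFAP2C rose, beside 5.95% and 6.92% of all genes. FOSL1, an AP-1 factor, had adjusted p of at least 0.699 throughout. In models of the compared groups alone, 3 of the 15 passed in each of these last 2 comparisons, beside 4.58% and 4.73% of all genes. Since this list was chosen with earlier results of these data known, its shares beside those of all genes are only a description. The part of these factors in the keratin values was not tested.

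Of 20 genes of keratin turnover and modification, all tested, none passed in miR-200a against NC mimic. SQSTM1, an autophagy receptor found in keratin inclusions, fell in the ELK3-labelled group by 0.89 on the log2 scale against miR-200a (adjusted p = 0.00293) and by 0.93 against NC mimic (adjusted p = 0.00178). SFN, the epithelial 14-3-3 protein that binds keratins, rose by 1.21 (adjusted p = 0.0152) and 1.84 (adjusted p = 0.00285) in these comparisons, by edgeR's quasi-likelihood test. STUB1, a ubiquitin ligase, rose by 0.59 against NC mimic (adjusted p = 0.0232). The abundant YWHAE and YWHAZ, other 14-3-3 proteins, and PTPN1, a phosphatase, had adjusted p of at least 0.215 throughout. In models of the compared groups alone 3, 1 and 2 genes of this list passed in the 3 comparisons, beside 7.9%, 4.58% and 4.73% of all genes. In the model of all 6 libraries, the 2 genes that passed against miR-200a and the 3 that passed against NC mimic, of 20, are shares near the 12.9% of all genes.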

How the data were processed

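RNA of 6 MDA-MB 231 libraries was sequenced at the 3′ end (QuantSeq). The authors deposited, for each library, whole-number counts per gene symbol without normalization. The submitters' processing notes name Bowtie2, edgeR and hg19 without versions or roles, and the study names ExDEGA. The annotation, the strand setting and the treatment of reads with several mapping places are not given in the sources used here. Groups came from the treatment labels. Each table has 25737 lines and 24462 symbols, and the 286 symbols on several lines, none a keratin gene described here, were summed.

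Counts were compared by edgeR 4.0.16 in R 4.3.3 (TMM, filterByExpr with a minimum count of 10, quasi-likelihood test in a single model of all 6 libraries with 3 residual degrees of freedom, Benjamini-Hochberg over 12650 genes). Standard errors were taken from the fold change and its F statistic, and 95% intervals from them. The alternatives were DESeq2 1.42.0, upper-quartile scaling, no filter, 10 counts in every library, only the compared groups, a replicate block, each library left out, the highest line per symbol, KRT81 and KRT86 summed, and, for KRT8 and KRT18, the counts of their listed pseudogenes added, with a crossed replicate block added after the data were seen. The test was run before use on simulated data with the same spread in every group. That run cannot show how the test behaves with the uneven ELK3-labelled group. Positions, overlaps and seed matches were read from the GENCODE annotation of GRCh38, a different build from hg19, and the miRNA from RefSeq (Biopython 1.88 for alignments). All 9 keratin genes are described, with other keratins of at least 10 counts, and from each list the called genes and those with the highest level, up to 4. The members and lists were chosen with earlier results of these data known.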

Additional observations from a re-analysis of the deposited data

How the results depend on the processing

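Of 324 alternative values for the 24 keratin results, 265 kept direction and side of the threshold, 31 lost the call, 22 gained it and 6 turned direction. Those 6 were all uncalled. In the ELK3-labelled group, KRT7 against miR-200a was -0.015 under upper-quartile scaling and -0.23 to 0.26 with a library left out, and KRT19 against miR-200a was -0.39 to 0.0061 with a library left out. Against NC mimic, KRT8 was -0.0072 under upper-quartile scaling and -0.16 to 0.23 with a library left out, and KRT15 was -0.76 to 0.26. Genes called in miR-200a against NC mimic were 34, and 91 with DESeq2, 230 without a filter, 999 with only the compared groups, 13 with the replicate block, and 0 to 1001 with a library left out. Against miR-200a the ELK3-labelled group had 1637, and 2490, 579 and 39 to 4730 without a filter, with only the compared groups and with a library left out. Against NC mimic it had 1629, and likewise 2525, 598 and 90 to 4721. The keratin genes called in these comparisons were 5, 1 and 2 with only the compared groups, and 0 to 5, 0 to 5 and 1 to 6 with a library left out. In the second comparison there was 1 with upper-quartile scaling and 1 with the replicate block, under which KRT18 (adjusted p = 0.0624) and KRT80 (0.0506) were not called by edgeR. Same-numbered libraries did not deviate together (correlations -0.003, -0.036 and -0.108), so they are not taken as pairs, and the block changed no other keratin call. Crossing the numbers of that group, added after seeing the data, gave 22 genes in the first comparison. Where leaving out a library left 1 in a group, that library was assumed to vary like the others. With 2 libraries a group, depths of 3055915 to 4868004 counts and an uneven ELK3-labelled group, the precision for small keratin differences is limited.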
